A study of Mus musculus with 8 samples.

Results

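The transcription factors that divide the intermediate part of the embryonic spinal neural tube were followed on arrays of mouse embryos with and without a conditional deletion of Geminin. The set held 10 genes (Dbx1, Dbx2, Irx3, Irx5, Prdm8, Prdm12, Sp8, Foxn4, Gsx1 and Gsx2), found by their gene name among the non-control probes of the array. They were read by 13 of 55664 probes with a value on every array. A probe was kept where both arrays of a group, in any group, read it well above background. By that filter 9 of the 10 genes (11 of the 13 probes) entered the test, in which 28939 genes were fitted together. Gsx2 did not.

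Spinal neural tube and the paraxial tissue beside it had been cut out separately with a laser from C57BL/6 embryos at E10.5. There were 4 groups of 2 arrays: mutant neural tube, wild-type neural tube, mutant paraxial tissue and wild-type paraxial tissue. Mutant embryos carried the genotype fl/fl; cre/o and the others were labelled wild type. Each of the 4 embryos gave both tissues, so the embryo is the replicate. The cre driver and the deleted part of Geminin are not given in the sources used here, so the cells in which the gene was deleted are not known from them.

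During spinal cord development, Sonic hedgehog from the ventral midline and BMP and Wnt signals from the dorsal midline set up bands of dividing progenitors along the dorsoventral axis. Retinoic acid from the somites favours the genes of the intermediate bands. Each band is marked by a combination of transcription factors, many of which repress the factors of the neighbouring bands, and each band produces its own class of interneuron. Dbx1 and Dbx2 mark the middle of the tube, Foxn4 and Prdm12 mark bands ventral to it, Irx3 spans a wide region down to the border of the motor neuron progenitors, and Gsx1 and Gsx2 lie dorsally.

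The probes are shown because each value below is the signal of 1 such 60-base oligonucleotide and says nothing of other parts of the transcript. For Prdm12 and Sp8 the brighter of 2 probes is given whole. Each was 55% G and C and held no stop codon in at least 2 reading frames (3 for Prdm12 and 2 for Sp8). Probes of Dbx1, Prdm8 and Gsx2 also had at least 2 such frames but held less G and C. The other probes are given by their first 30 bases, 5′ to 3′ and in lower case throughout. Positions are those of the files, on mouse build mm9, and whether a probe lies in coding sequence or in an untranslated region was not annotated here.
Dbx1, chr7:56887073-56887132, minus strand: cagcttacctgagatgtgctctactgtgta
Dbx2, chr15:95455071-95455130, minus strand: accatttgacgggaacatactccgtgtaca
Irx3, chr8:94322476-94322535, minus strand: gtctgactctttttgtatatacgggaaaat
Irx5, chr8:94884923-94884982, plus strand: tatggagatggatggcataaaaatgtatac
Prdm8, chr5:98616387-98616446, plus strand: ctatccctaagagatttattaaacggtata
Prdm12, chr2:31507422-31507481, plus strand: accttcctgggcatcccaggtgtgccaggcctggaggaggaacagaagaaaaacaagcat
Prdm12, the dimmer probe, chr2:31511125-31511184, plus strand: catgtatagagttttcaagaaagtgtgttc
Sp8, chr12:120088145-120088204, plus strand: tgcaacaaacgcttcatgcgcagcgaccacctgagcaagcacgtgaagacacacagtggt
Sp8, the dimmer probe, chr12:120090880-120090939, plus strand: aaacattgtcttgttatgtctaagtgcatt
Foxn4, chr5:114704209-114704268, minus strand: tcatgcagtttaagtgtgaagaccccgtgt
Gsx1, chr5:148002422-148002481, plus strand: ggactgactgactgtgtcattgtatcgtct
Gsx2, the brighter probe, chr5:75473487-75473546, plus strand: agctcctctttatctgggattccactcagt
Gsx2, the dimmer probe, chr5:75473670-75473729, plus strand: tgtcttttcagaacttgatgagaagagggg

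The share of probes well above background ran from 71.5% to 77.9% over the 8 arrays, and within a tissue it was lower on the mutant arrays than on either wild-type array. The targeted gene, Gmnn, had a scaled log2 signal of 12.11 and 11.80 in mutant neural tube, against 12.35 and 12.24 in wild-type neural tube. Mutant paraxial tissue gave 11.42 and 11.39, against 12.20 and 11.88 in wild-type paraxial tissue. Neither difference passed (limma adjusted p = 0.921 and 0.996), and a probe outside the deleted part would check nothing. The number of embryos, 2 per genotype, limits the precision of every comparison below.

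Of the 9 tested genes, 8 were higher in neural tube than in paraxial tissue when both genotypes were averaged. These were Dbx1, Dbx2, Irx3, Irx5, Prdm8, Sp8, Foxn4 and Gsx1. Among all genes, 5.94% passed in that direction and 6.01% in the other (limma, Benjamini-Hochberg adjusted p of 0.05 over 28939 genes). All 9 differences were above 0, with a median of 1.48 on the log2 scale, while the median of all genes was -0.02. In mutant embryos alone 5 passed (Dbx1, Dbx2, Prdm8, Sp8 and Foxn4), against 2.67% of all genes in that direction and 3.16% in the other. In wild-type embryos alone 2 passed (Dbx1 and Prdm8), against 0.771% of all genes in that direction and 1.68% in the other. In mutant embryos the neural tube values of all 9 genes lay above the paraxial ones without overlap, as did those of 16.6% of all genes. In wild-type embryos 8 of 9 did (all but Prdm12), against 18.3% of all genes. Over all 4 neural tube and 4 paraxial arrays the values of 6 genes did not overlap (Dbx1, Dbx2, Irx3, Irx5, Prdm8 and Sp8), against 4.46% of all genes.

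These counts moved with single arrays and embryos and with the embryo term. The count within mutants was 0 without mutant neural tube array 1 or 2, without mutant paraxial array 2 and without either mutant embryo. The count within wild type was 0 without either mutant paraxial array, without wild-type neural tube array 2 or wild-type paraxial array 2, and without any 1 of the 4 embryos, and 1 without either mutant neural tube array. Both were 0 when the embryo term was dropped or replaced by the replicate number as a block. The averaged count was 5 without wild-type neural tube array 2, mutant paraxial array 1 or wild-type paraxial array 2, 5 and 4 without mutant embryo 1 or 2, 5 and 2 without wild-type embryo 1 or 2, 2 with the embryo term dropped and 4 with the replicate number in its place. Prdm8 passed in all 22 alternative settings and Dbx1 in 21 of them, while Irx3 passed in 11 and Gsx1 in 10.

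Markers of both tissues also differed in the contrast averaged over genotypes. All 9 neural tube markers, such as Sox1, Sox2 and Rfx4, were higher in neural tube (median log2 difference 1.94), and 9 of 11 somite and mesenchyme markers, among them Twist1 and Foxc2, were lower (median -2.81). Of the other lists, 5 of 10 neuron markers were higher and 3 of 11 surface ectoderm markers were lower. Of 11 sensory ganglion and crest markers 1 was higher and 2 lower. Among all genes, 5.94% passed as higher and 6.01% as lower. The 9 neural tube markers were nevertheless well above background on every paraxial array. Of the 11 somite and mesenchyme markers, 10 and 10 were so on mutant neural tube arrays 1 and 2, and 7 and 11 on the wild-type ones. Their mean lay at -0.007 and 0.25 log2 units from the neural tube mean on the mutant arrays, and at -1.25 and 1.01 on the wild-type ones. The part of either marker list in the signal of the progenitor factors was not tested. In such dissected tissue, fewer cells of a type and less RNA per cell cannot be told apart.

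**Figure D1:**
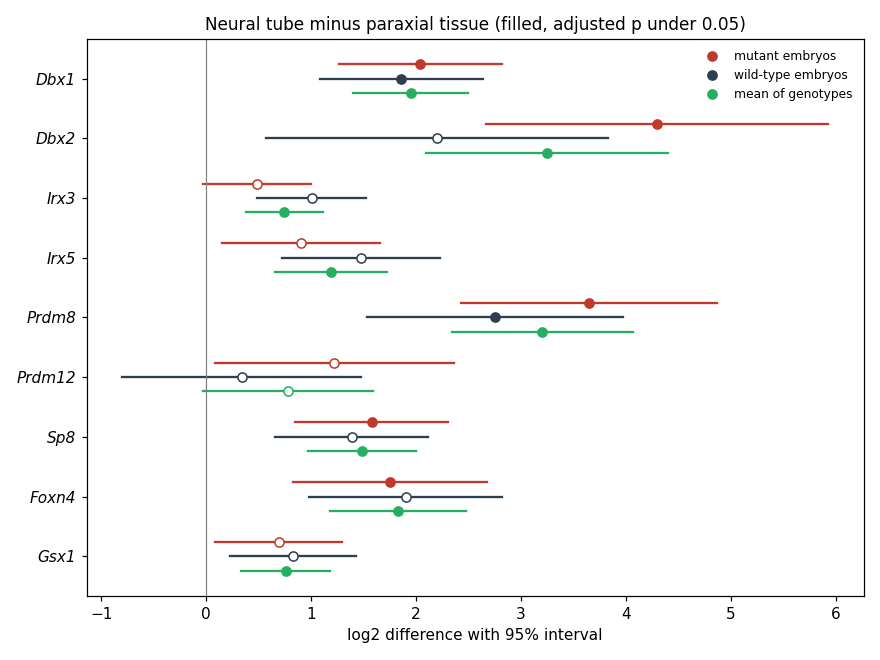
Log2 difference, neural tube minus paraxial tissue, for the 9 tested genes in mutant embryos, in wild-type embryos and averaged over genotypes. Points are limma estimates and lines their 95% intervals, and filled points had an adjusted p under 0.05. Every point lies right of 0, from 0.34 for Prdm12 in wild type to 4.30 for Dbx2 in mutants. The latter uses a paraxial reading that was not well above background.

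Between genotypes, 0 of the 9 genes passed in neural tube and 0 in paraxial tissue. limma called 0% of all genes in either direction in both tissues, also with trend and robust moderation. At an unadjusted p under 0.05 there were 0 of 9 in neural tube, against 3.63% of all genes, and 1 of 9 in paraxial tissue (Irx3), against 3.36% of all genes. In each tissue 3 of the 9 differences were above 0. The median log2 difference was -0.19 in neural tube, where that of all genes was -0.01, and -0.54 in paraxial tissue, where that of all genes was 0.03.

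Without overlap between genotypes, Irx3 and Sp8 lay higher in mutant neural tube (16.5% of all genes did) and Foxn4 and Gsx1 lower (15.4% of all genes did). In mutant paraxial tissue Irx3 and Irx5 lay higher without overlap (22.6% of all genes) and Prdm8, Prdm12 and Gsx1 lower (14.7% of all genes). With 2 arrays a group, such separation was common across the array. The genotype difference did not pass as differing between tissues for any of the 9 (limma interaction, 0% of all genes called in either direction). At an unadjusted p under 0.05 the interaction gave 0 of 9, against 5.17% of all genes. The largest term was that of Dbx2, at 2.10 ± 0.97 for the neural tube difference minus the paraxial one (log2, SE; limma adjusted p = 0.956). It ran from 0.75 to 3.45 with single arrays or embryos left out, was 1.14 with normexp background correction, and includes a mutant paraxial reading that was not well above background.

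**Figure D2:**
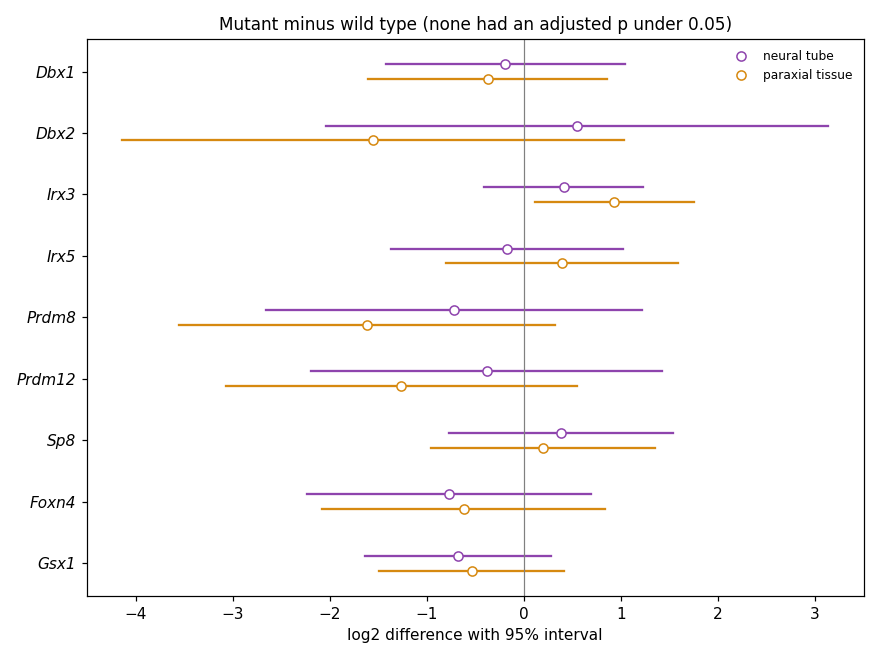
Log2 difference, mutant minus wild type, for the 9 tested genes in neural tube and in paraxial tissue, as limma estimates with 95% intervals. The intervals include 0 for all but Irx3 in paraxial tissue, whose interval runs from 0.11 to 1.75 and whose adjusted p was 0.996.

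Dbx1 and Dbx2 are homeodomain proteins of the progenitors in the middle of the tube, and Dbx1 is needed there for the V0 commissural interneurons. Dbx1 had a scaled log2 signal of 10.34 and 10.35 in mutant neural tube, against 10.18 and 10.88 in wild-type neural tube. Its signal in mutant paraxial tissue was 8.49 and 8.11, against 9.08 and 8.26 in wild-type paraxial tissue. The genotypes overlapped in both tissues, and every neural tube array lay above every paraxial array. The tissue difference was 1.95 ± 0.23 (log2, SE, mean of genotypes; limma adjusted p = 0.00427), about a 3.86-fold higher signal in neural tube, and 1.36 with normexp background correction. The mutant difference was -0.19 in neural tube, with a 95% interval from -1.42 to 1.04, and -0.37 in paraxial tissue (-1.60 to 0.86).

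Dbx2, whose band is wider than that of Dbx1, had, with Prdm8, one of the largest tissue differences of the set. It stood at 11.68 and 11.49 in mutant neural tube, against 11.56 and 10.5045 in wild-type neural tube. Paraxial values were 8.68 and 5.89 in mutant embryos, against 9.90 and 7.77 in wild-type embryos. The value of 5.89, from mutant embryo 2, was the only one of the 8 not well above background, and in each genotype the paraxial arrays differed by more than 2 log2 units. Neural tube was higher by 3.25 ± 0.49 (log2, SE, mean of genotypes; limma adjusted p = 0.00811), and by 2.08 with normexp background correction. This average also uses the reading of 5.89, and was 2.58 at the lowest with single arrays or embryos left out. The fitted difference within mutants, 4.30 ± 0.69 (adjusted p = 0.0203), uses the reading of 5.89 and is therefore not a measured size. Without that array it was 2.95 (adjusted p = 0.114), and with normexp correction 2.66 (adjusted p = 0.00368). Within wild type the difference was 2.20 ± 0.69 (adjusted p = 0.159), or 1.51 with normexp correction (adjusted p = 0.0183). The mutant difference was 0.55 in neural tube, with an interval from -2.04 to 3.14, and -1.55 in paraxial tissue (-4.14 to 1.04), so that changes of several-fold either way were not resolved. The paraxial value also uses the reading of 5.89 and is not a measured size.

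Irx3 and Irx5 are Iroquois homeodomain proteins encoded in 1 gene cluster, and Irx3 sets the dorsal limit of the motor neuron progenitors by repressing Olig2. Irx3 was 13.63 and 12.89 in mutant neural tube, against 12.87 and 12.84 in wild-type neural tube. The paraxial arrays read 12.72 and 12.84 for mutant embryos, against 11.83 and 11.86 for wild-type embryos. Both mutant arrays lay above both wild-type arrays in each tissue, and the 2 arrays of a group were closely placed except in mutant neural tube. The gap in neural tube was narrow, 12.89 against 12.87. Of all genes, 16.5% lay higher without overlap in neural tube and 22.6% in paraxial tissue. The share that did so in both was not counted. The paraxial difference was 0.93 ± 0.35 (log2, SE; unadjusted p = 0.0310, limma adjusted p = 0.996). With single arrays or embryos left out it ran from 0.69 to 1.18, with an adjusted p of 0.818 at the lowest. In neural tube the difference was 0.41 ± 0.35 (adjusted p = 0.921).

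The paraxial values of Irx3 in mutants were close to those of neural tube. The tissue difference was 0.48 ± 0.22 in mutants (adjusted p = 0.287) and 1.01 ± 0.22 in wild type (adjusted p = 0.0679), and averaged over genotypes it passed at 0.74 ± 0.15 (limma adjusted p = 0.0244). Surface ectoderm markers such as Krt8 and Epcam were also higher in mutant paraxial tissue. All 11 measured had a mutant difference above 0 there, against 53.5% of all genes, with a median of 1.25, and 0 passed. Their mean lay at 0.94 and 0.33 from the tissue mean on the mutant paraxial arrays and at -0.86 and -0.41 on the wild-type ones. Irx3 lay at 0.41 and 0.52 on the mutant arrays and at -0.48 and -0.45 on the wild-type ones. In neural tube 9 of the 11 markers had a mutant difference above 0, against 49.2% of all genes, with a median of 0.85, and 0 passed. Their mean lay at 0.53 and 0.10 from the tissue mean on the mutant neural tube arrays and at -0.44 and -0.20 on the wild-type ones. Irx3 there lay at 0.58 and -0.16 on the mutant arrays and at -0.19 and -0.22 on the wild-type ones. The part of the surface ectoderm markers in the Irx3 values was not tested in either tissue.

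Irx5 was 12.38 and 11.47 in mutant neural tube, against 12.17 and 12.04 in wild-type neural tube. Mutant paraxial tissue gave 10.72 and 11.32, against 10.71 and 10.53 in wild-type paraxial tissue. Mutant embryo 1 held the highest neural tube value and mutant embryo 2 the lowest, with both wild-type arrays between them. Neural tube was higher by 1.19 ± 0.22 (log2, SE, mean of genotypes; limma adjusted p = 0.0177). The mutant difference was -0.18 (-1.37 to 1.02) in neural tube and 0.40 (-0.80 to 1.59) in paraxial tissue. The other Iroquois genes Irx1, Irx2, Irx4 and Irx6 had tissue differences of 1.57, 0.70, -0.16 and 1.73, and 0 of these 4 passed.

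**Figure D3:**
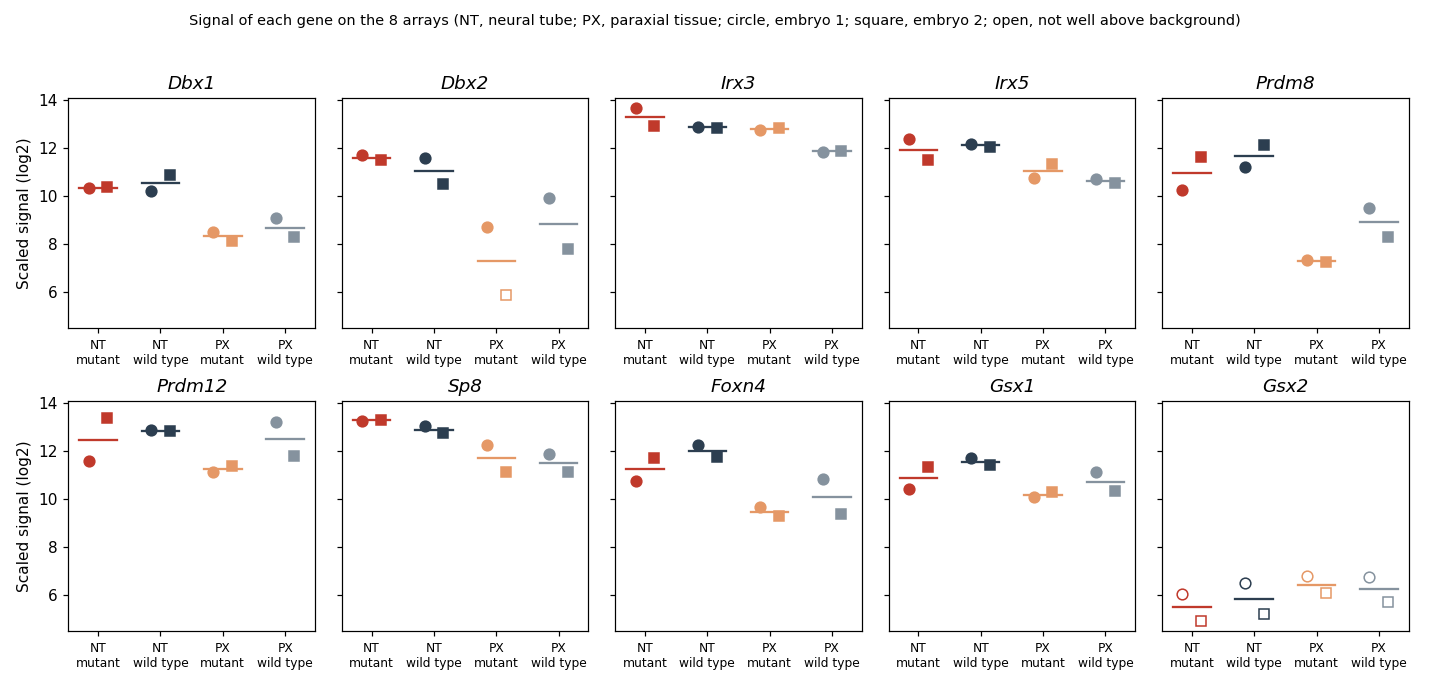
Scaled log2 signal of each of the 10 genes on the 8 arrays, by group, with circles for embryo 1, squares for embryo 2, a line at the group mean and open symbols where the probe was not well above background. Neural tube lies above paraxial tissue for most genes, Irx3 in mutant paraxial tissue sits at 12.72 and 12.84 beside the neural tube values, and Gsx2 is open throughout; levels are those of different probes and are not comparable between genes.

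Prdm8 and Prdm12 belong to the PR-domain family of transcriptional regulators. Prdm12 specifies V1 interneuron progenitors and is also expressed by developing pain-sensing neurons of the dorsal root ganglia, which form beside the neural tube. Prdm8 was 10.24 and 11.62 in mutant neural tube, against 11.20 and 12.09 in wild-type neural tube. Paraxial values were 7.31 and 7.25 in mutant embryos, against 9.49 and 8.30 in wild-type embryos. The paraxial genotypes did not overlap, and neural tube arrays were higher throughout. The tissue difference of 3.20 ± 0.36 (log2, SE, mean of genotypes) had the smallest adjusted p of the set (limma, 0.00390), about a 9.20-fold higher signal. With normexp background correction the difference was 2.25, about 4.76-fold, and the mutant paraxial values lay close to those arrays' lowest signals called well above background, 7.13 and 6.91. The paraxial mutant difference was -1.61 ± 0.82 (adjusted p = 0.996), with an interval from -3.55 to 0.32, and the neural tube difference was -0.71 ± 0.82 (adjusted p = 0.927).

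Prdm12 was the tested gene whose tissue difference did not pass. Its brighter probe read 11.56 and 13.37 in mutant neural tube, against 12.87 and 12.82 in wild-type neural tube. The paraxial arrays read 11.13 and 11.36 for mutant embryos, against 13.21 and 11.80 for wild-type embryos. Wild-type paraxial array 1 thus lay above both wild-type neural tube arrays, and mutant neural tube array 1 lay below the other neural tube arrays. The tissue difference was 0.78 ± 0.34 averaged over genotypes (limma adjusted p = 0.203), 1.22 ± 0.48 in mutants and 0.34 ± 0.48 in wild type. Without wild-type neural tube array 2 or wild-type paraxial array 2 the wild-type value was -0.17 or -0.35. The mutant difference was -0.38 (-2.19 to 1.43) in neural tube and -1.26 (-3.07 to 0.55) in paraxial tissue.

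The dimmer Prdm12 probe, 3703 bases further along the chromosome, gave the same order of arrays in paraxial tissue within wild type. It read 8.21 and 8.92 in mutant neural tube, against 8.60 and 9.87 in wild-type neural tube, and 6.49 and 4.72 in mutant paraxial tissue, against 9.19 and 7.01 in wild-type paraxial tissue. It was not well above background on either mutant paraxial array. The lowest signals called well above background on those arrays were 7.13 and 6.91, and the second wild-type paraxial value, 7.01, lay between them. Set against these floors, mutant paraxial tissue was at least 2.12-fold lower than wild-type paraxial tissue by this probe, a bound that rests on wild-type paraxial array 1. Mutant neural tube was at least 2.93-fold higher than mutant paraxial tissue. The bounds themselves were not tested. The fitted log2 differences, -2.49 and 2.96, use the readings not well above background (limma adjusted p = 0.995 and 0.0970).

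Foxn4, a forkhead protein of the V2 progenitors that promotes the V2b interneuron fate, was 10.76 and 11.70 in mutant neural tube, against 12.23 and 11.76 in wild-type neural tube. Mutant paraxial tissue gave 9.67 and 9.28, against 10.82 and 9.37 in wild-type paraxial tissue. The neural tube genotypes did not overlap, although mutant array 2 and wild-type array 2 were nearly equal. Neural tube was higher by 1.83 ± 0.27 (log2, SE, mean of genotypes, limma adjusted p = 0.00820), about 3.55-fold. Within mutants the tissue difference was 1.75 ± 0.39 (limma adjusted p = 0.0492). Within wild type it was 1.90 ± 0.39 (limma adjusted p = 0.0584), so the larger of these values did not pass. The mutant difference in neural tube was -0.77 ± 0.62 (adjusted p = 0.921), with an interval from -2.23 to 0.69, and in paraxial tissue -0.62 ± 0.62 (adjusted p = 0.996).

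Sp8, a zinc finger factor that also acts in the apical ectodermal ridge of the limb bud, was 13.23 and 13.30 in mutant neural tube, against 13.03 and 12.73 in wild-type neural tube. Paraxial values were 12.25 and 11.13 in mutant embryos, against 11.85 and 11.13 in wild-type embryos. The tissue difference of 1.48 ± 0.22 passed (log2, SE, mean of genotypes; limma adjusted p = 0.00759). The dimmer probe of Sp8 gave 1.96 ± 0.19 (limma adjusted p = 0.00273 over all kept probes) and passed within wild type too (2.16 ± 0.26, adjusted p = 0.0167), where the brighter one did not (1.39 ± 0.31, adjusted p = 0.0711). The genotype differences of Sp8 passed by neither probe. In neural tube they were 0.39 ± 0.49 by the brighter and -0.03 ± 0.42 by the dimmer probe. The lack of overlap seen with the brighter probe was not shared by the dimmer one. By the brighter probe the 95% intervals ran from -0.77 to 1.54 in neural tube and from -0.96 to 1.36 in paraxial tissue.

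Gsx1 and Gsx2 are homeodomain proteins of the dorsal progenitors that give rise to association interneurons. Gsx1 was 10.41 and 11.33 in mutant neural tube, against 11.70 and 11.40 in wild-type neural tube. The paraxial arrays read 10.06 and 10.30 for mutant embryos, against 11.11 and 10.33 for wild-type embryos. In each tissue both mutant arrays lay below both wild-type arrays, although mutant array 2 and wild-type array 2 were nearly equal. Of all genes, 15.4% lay lower without overlap in neural tube and 14.7% in paraxial tissue. The share that did so in both was not counted. Both tissues were treated as sharing embryos, so they do not give separate agreement. The mutant difference was -0.67 ± 0.40 in neural tube (limma adjusted p = 0.921) and -0.54 ± 0.40 in paraxial tissue (adjusted p = 0.996). Neural tube was higher by 0.76 ± 0.18 averaged over genotypes (adjusted p = 0.0388), among the smallest tissue differences of the set.

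Gsx2 was not well above background on any of the 8 arrays by either of its 2 probes. The brighter probe read 6.03 and 4.93 in mutant neural tube, against 6.48 and 5.21 in wild-type neural tube. Mutant paraxial tissue gave 6.79 and 6.07, against 6.75 and 5.70 in wild-type paraxial tissue. The lowest signal called well above background on an array was between 6.13 and 7.13, so these readings give only an upper limit and no fold change.

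Within a tissue the 9 genes did not all deviate the same way on an array. On mutant neural tube array 1, Prdm8, Foxn4 and Gsx1 lay at -1.05, -0.86 and -0.80 log2 units from the mean of the neural tube arrays and Prdm12 lay lowest, while Irx3, Irx5, Dbx2 and Sp8 lay at 0.58, 0.37, 0.37 and 0.16. Neuron markers such as Tubb3 and Dcx (10 of 10 measured) lay at -0.70 on the same array, and surface ectoderm markers (11 of 12 measured) at 0.53. Factors of the interneurons that these bands produce, such as Pax2 and Lhx1 (20 of 23 measured), lay at -0.96. Sensory ganglion and crest markers lay at -0.41, neural tube markers at 0.03 and Dbx1 at -0.10. On wild-type paraxial array 1, Dbx2, Prdm8, Prdm12, Foxn4 and Gsx1 lay at 1.84, 1.40, 1.34, 1.03 and 0.66 from the paraxial mean. Dbx1 lay at 0.59, Sp8 at 0.26 and Irx3 and Irx5 at -0.48 and -0.11. On the same array neuron markers lay at 1.03, sensory ganglion and crest markers at 0.83 and neural tube markers at 0.64. Interneuron factors lay at 0.80 and surface ectoderm markers at -0.86.

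Mutant neural tube array 1 and wild-type paraxial array 1 were chosen here because they stood apart in these deviations. Differences nearer 0 without them for Prdm8, Foxn4 and Gsx1 therefore follow from that choice. Over all single arrays or embryos left out, the neural tube difference ran from -1.61 to 0.18 for Prdm8, -1.34 to -0.20 for Foxn4 and -1.13 to -0.22 for Gsx1. In paraxial tissue it ran from -2.56 to -0.66, -1.34 to 0.10 and -0.93 to -0.15. Without mutant neural tube array 1 the mutant difference in neural tube was -0.00946 for Prdm8, -0.20 for Foxn4, -0.28 for Gsx1, 0.47 for Prdm12, 0.012 for Irx3 and 1.16 for Dbx2. Without wild-type paraxial array 1 the paraxial difference was -0.66 for Prdm8, -0.57 for Prdm12, -0.089 for Foxn4 and -0.27 for Gsx1, while that of Irx3 was 0.91. All 10 neuron markers were well above background on every array, and their part in these values was not tested.

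**Figure D4:**
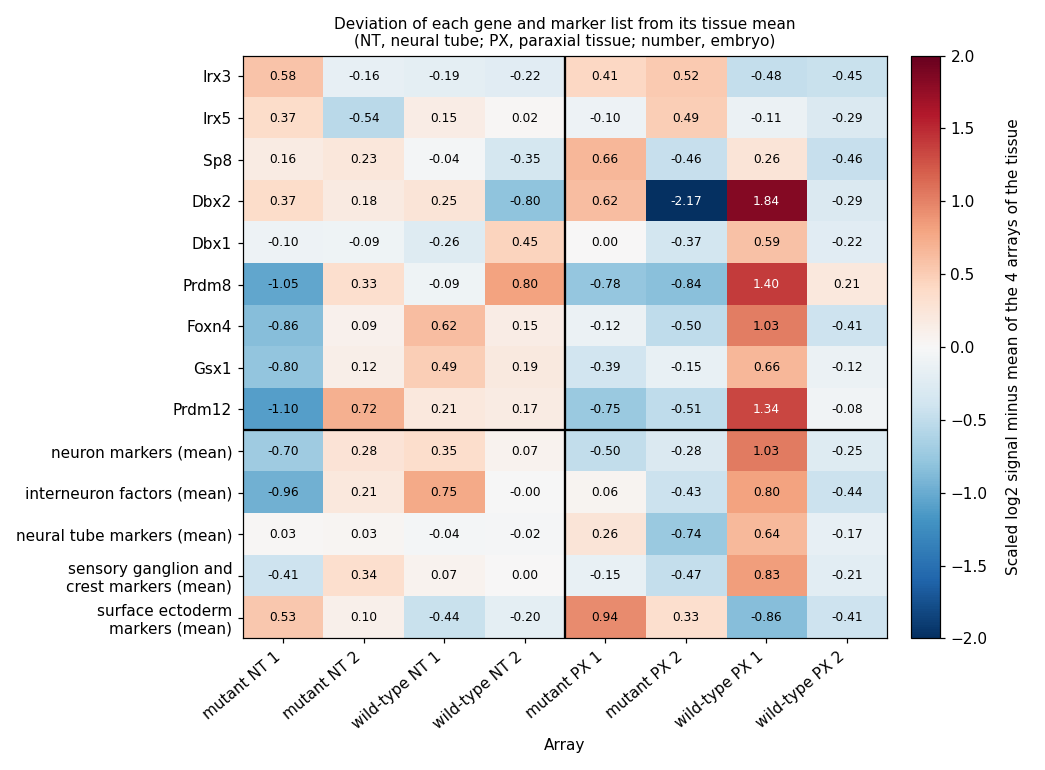
Deviation of each gene (upper rows) and of list means (lower rows) from the mean of the 4 arrays of its tissue, in log2 units, for the 8 arrays. The lists are neuron, neural tube, sensory ganglion and crest, and surface ectoderm markers and interneuron factors. Somite and mesenchyme markers are not drawn. Mutant neural tube array 1 is low and wild-type paraxial array 1 high for Prdm8, Foxn4, Gsx1 and Prdm12 and for the neuron markers, while Irx3 follows another order.

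Of 21 dorsoventral patterning factors of the neighbouring bands, 13 were higher and 0 lower in neural tube (mean of genotypes, median 1.70). A difference below 0 was seen for 4 of them. The shares of all genes were 5.94% higher and 6.01% lower. The patterning factors with the smallest p were Nkx2-2 (2.60 ± 0.15, log2, SE), Foxa2, Nkx6-1 (2.23 ± 0.21) and Nkx6-2, all of ventral bands. Between genotypes 0 of the 21 passed in either tissue, with a median of 0.18 in neural tube and 0.02 in paraxial tissue.

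Of 20 measured interneuron factors, 8 were higher and 1 lower in neural tube. For this list and those below, 5.94% of all genes passed as higher and 6.01% as lower. The 1 lower factor is thus near the share of all genes. Higher were Gbx2 (1.62 ± 0.21), Lhx4 (2.17 ± 0.33) and the V2 and motor neuron factor Lhx3 (2.23 ± 0.34), and the lower one was Foxp2 (-1.17 ± 0.19). In mutant neural tube 17 of the 20 lay below wild type, with a median of -0.55, and 0 passed. The mean of the 20 on mutant neural tube arrays 1 and 2 was 9.86 and 11.03, against 11.58 and 10.82 on the wild-type ones, so that mutant array 2 lay above wild-type array 2. In the same contrast 8 of 10 neuron markers lay below wild type, with a median of -0.41, and 49.2% of all genes were above 0. The part of the neuron markers in this count was not tested. Of 17 retinoic acid pathway genes, 2 were higher and 4 lower in neural tube, against 5.94% and 6.01% of all genes. The lower ones included the retinaldehyde reductase gene Dhrs3 (-1.28 ± 0.16), the retinol transporter gene Stra6 (-1.30 ± 0.17), the receptor gene Rarg (-1.90 ± 0.32) and Aldh1a2, which encodes the synthesising enzyme (-0.98 ± 0.20). Between genotypes 0 of the 17 passed, with a median of 0.27 in neural tube and 0.36 in paraxial tissue. Of 14 general progenitor genes, 8 of which are also in the neural tube marker list, 13 were higher in neural tube, led by Fzd3 (1.04 ± 0.11) and Sox1 (1.41 ± 0.17). Of 19 other Iroquois, Prdm and Sp genes, 1 was higher, the dorsal factor Prdm13 (2.50 ± 0.41), which is near the share of all genes called in that direction, 5.94%.

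Genes whose signal followed a factor most closely over the 8 arrays were sought among 25646 others well above background on every array, for factors that were themselves so. Dbx2 and Gsx2 were not. For Dbx1 they were Nat8l and Apba2 (Pearson r of 0.995 and 0.992). For Sp8 they were Emid1 and the progenitor factor Pax6 (0.987 and 0.987). For Foxn4 they were Rundc3a and Iglon5 (0.997 and 0.992). The pair for Prdm12 was an unnamed transcript and the axonal adhesion molecule L1cam (0.975 and 0.966), and that for Prdm8 were 2 unnamed intervals (0.991 and 0.990). Irx3 was followed by Emilin2 and Atp6ap1l (0.965 and 0.939) and Irx5 by Insl6 and Tdg (0.965 and 0.953). The arrays were treated as sharing embryos, and they differ by tissue. An r over 0.9 was common for Foxn4 and Gsx1 (603 genes each) and rare for Irx3 and Irx5 (19 and 12 genes).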

How the data were processed

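The authors deposited a scanner file for each array, whose processed red intensity (linear scale) came from Agilent Feature Extraction 11.0.1.1, per the file headers. RNA from laser-captured tissue was labelled with Cy5, per the labels' protocols. Control and outlier spots were left out, spots of a probe were averaged on the log2 scale, and the 75th percentile of each array was subtracted and a common constant added back. A probe was kept if any group had it well above background on both arrays (42752 probes), and the brightest stood for each of 28939 genes, named by RefSeq accession or symbol.

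A model of 4 group means was fitted with limma 3.58.1 in R 4.3.3 over the 8 arrays, and the embryo entered as a random effect (consensus correlation 0.603) and Benjamini-Hochberg adjustment. All SE, 95% intervals and adjusted p-values come from it. The sample titles give a replicate number, by which the tissues of a genotype were matched to an embryo. Tissues matched in this way deviated together (r across genes 0.607 in mutants and 0.562 in wild type). Arrays of the same number from different embryos had an r of 0.291 in each tissue. They also share a slide row, which was inferred and is not given in the sample titles. The code was tested on simulated arrays. All 10 genes are named, and from each list the genes that passed, at most 4 by smallest p. The genes, the lists and the tests were chosen with earlier results of these data known. Irx1, Irx2, Irx4, Irx6 and the marker examples fall outside this rule and were picked after their values were seen. The genes most like Gsx1 are not reported here.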

Additional observations from a re-analysis of the deposited data

How the results depend on the processing

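The 22 alternatives were other scalings, background correction, probe filters, probe choice, moderation, the authors' value table, the embryo term and leaving out arrays or embryos. For the mean of genotypes, the count of 8 genes higher in neural tube was 2 with no replicate block (Dbx1 and Prdm8). There the embryo was not in the model. The count was 4 with the replicate number as a fixed replicate block in place of the embryo. That number also matches the inferred slide row. Under either of these fits the counts within mutants and within wild type were 0. With no filter on dim probes, which brought the genes tested to 10, 2 passed within mutants and 0 within wild type. Within wild type, where 2 passed, there were 4 with quantile scaling, 4 with median scaling, 7 with normexp background correction, 6 with probes well above background on all 8 arrays and 6 with trend and robust moderation. Leaving out an array or an embryo gave 2 to 8 for the mean of genotypes, 0 to 5 within mutants and 0 to 3 within wild type. The count within mutants was 2 without mutant paraxial array 1 or either wild-type embryo. With the genotype contrasts and the interaction, the count was 0 under all 22. Where an embryo was left out, the correlation could not be estimated and 0.603 was used; an array left alone in its group is assumed to vary like the others.

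Of 1006 values of single genes under the alternatives, 849 kept their direction and their side of the threshold, 115 lost and 21 gained a call, and 21 changed sign. Among the last, the Dbx1 difference in paraxial tissue was 0.029 with normexp correction. The others came from left-out arrays or embryos. In neural tube the mutant difference then ran from -0.85 to 0.47 for Dbx1, -0.063 to 1.16 for Dbx2, -0.78 to 0.43 for Irx5, -1.61 to 0.18 for Prdm8 and -1.29 to 0.53 for Prdm12. In paraxial tissue it ran from -1.06 to 0.32 for Dbx1, -0.14 to 0.93 for Irx5, -0.38 to 0.78 for Sp8 and -1.34 to 0.10 for Foxn4. The wild-type tissue difference of Prdm12 ran from -0.35 to 1.03. Within these ranges, Prdm12 in neural tube was -1.23 without mutant neural tube array 2. Without mutant embryo 1, Sp8 in paraxial tissue was -0.36, and without mutant embryo 2, Irx5 in neural tube was 0.28. Without wild-type embryo 1, Dbx1 in paraxial tissue was 0.038. Without wild-type embryo 2, Dbx1 in neural tube was 0.16, Sp8 in paraxial tissue -0.16 and the tissue difference of Prdm12 -0.34. Signal over background limits Gsx2 on all arrays, Dbx2 on 1 mutant paraxial array and the dimmer Prdm12 probe.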
